A study of Mus musculus with 12 samples.

Results

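The mRNA of intracranial tumors was compared between mice that received combined anti-PD-1 and anti-CTLA-4 antibodies (PC blockade) together with depletion of natural killer (NK) cells, called ΔNK tumors here, and mice that received PC blockade alone and had few CD8+ T cells in the tumor, called CD8L tumors. The comparison used 6 of the 12 libraries of the study, 3 ΔNK and 3 CD8L tumors, each from a separate mouse. Of the 54532 genes counted, 17320 had enough reads in the 12 libraries to be tested. Both groups had PC blockade. CD8L tumors were chosen after treatment for few CD8+ T cells, while no such choice is described for ΔNK tumors. NK cell depletion and this choice therefore cannot be told apart in the differences below.

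All mice were wild-type C57Bl6 animals that carried B16-OVA melanoma cells, a mouse melanoma line expressing ovalbumin, under the skin of the flank, and 3 days later received B16-OVA/Fluc cells in the striatum of the brain. The labels give antibody on days 5 and 7 and isolation of the brain tumor on day 8 after the intracranial injection. ΔNK mice received anti-Asialo-GM2 as the labels name it, while the methods of the study name anti-Asialo-GM1, throughout the experiment. Antibodies of this kind bind a glycolipid that some other leukocytes, including some T cells, also carry, and the part of such cells in the values below was not tested. The CD8L tumors were separated from the other PC-treated tumors (CD8H) by how many CD8+ T cells they contained. The remaining libraries were 3 CD8H tumors and 3 tumors of mice given control IgG. IgG values are given as background. The whole tumor was sequenced, so fewer cells of a type and less RNA per cell cannot be told apart.

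NK cells are lymphocytes that kill without prior sensitization. Their decision to kill depends on the balance between activating receptors, such as NKp46 (Ncr1) and NKG2D (Klrk1), and inhibitory receptors for MHC class I, which in the mouse include the Ly49 family (Klra genes) and the CD94/NKG2A pair (Klrd1 and Klrc1). Engaged NK cells release perforin and granzymes and secrete interferon gamma (IFN-γ), XCL1, CCL5 and FLT3L. IFN-γ acts on tumor and stromal cells, where it induces MHC genes, guanylate-binding proteins and the chemokines CXCL9, CXCL10 and CXCL11, which attract T cells carrying CXCR3.

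The libraries held 16336993 to 26416214 assigned reads. No gene passed edgeR's quasi-likelihood test at an adjusted p of at most 0.05 between ΔNK and CD8L tumors (smallest adjusted p = 0.131 in edgeR). At an unadjusted p of at most 0.05, 924 genes (5.33% of those tested) were lower and 128 (0.739%) were higher in ΔNK tumors. The 3 ΔNK values lay entirely below the 3 CD8L values for 1192 genes (6.88%) and entirely above them for 560 genes (3.23%). DESeq2 on the same 12 libraries called 158 genes, 149 lower (0.860%) and 9 higher (0.0520%) in ΔNK tumors. For all 158 the unadjusted edgeR p was at most 0.05. That DESeq2 count ranged from 13, without CD8L tumor 3, to 289, without CD8L tumor 2, when each of the 6 libraries was left out, and was 30 without CD8L tumor 3 and ΔNK tumor 3. In a DESeq2 fit of the 6 libraries alone it was 19. With the replicate number as a block, an alternative added after the data were seen, DESeq2 called 411 genes, 399 lower and 12 higher, among them 151 of the 158. Tumors 3 of both groups were the richest in neuron markers of their groups, and ΔNK tumor 2 was the lowest in interferon-inducible genes. The values below are therefore descriptions of the 6 tumors, and a gene is said to be called only where DESeq2 called it in the 12-library fit.

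The sequences upstream of some genes of the comparison are shown first, because many of the genes described below belong to an NK cell group or an interferon-inducible group. RUNX factors act in cytotoxic lymphocytes, and their core motif was searched as TGTGGT on both strands. In the reference table of 32851 RefSeq promoters (GRCm38.p6, 250 bases before to 50 bases after each start), 16.8% held it. Among NK receptor and cytotoxic effector genes, 41 of 47 matched the table, and 26 of their 51 promoters (51.0%) held it. The promoter of Ncr1, which encodes the receptor NKp46 (chr7:4337465-4337764, plus strand), held 2 matches, beginning 176 and 41 bases before the start. The promoters of Prf1, encoding perforin (chr10:61297586-61297885, plus strand), and of Gzma, encoding granzyme A (chr13:113100932-113101231, minus strand), held 1 each. Capitals mark the RUNX letters.
Ncr1: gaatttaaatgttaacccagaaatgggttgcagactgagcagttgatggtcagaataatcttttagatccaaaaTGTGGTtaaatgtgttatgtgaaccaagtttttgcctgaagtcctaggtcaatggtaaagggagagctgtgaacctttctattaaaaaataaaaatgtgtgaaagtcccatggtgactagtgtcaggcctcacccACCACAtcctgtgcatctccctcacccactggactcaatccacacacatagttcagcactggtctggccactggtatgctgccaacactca
Prf1: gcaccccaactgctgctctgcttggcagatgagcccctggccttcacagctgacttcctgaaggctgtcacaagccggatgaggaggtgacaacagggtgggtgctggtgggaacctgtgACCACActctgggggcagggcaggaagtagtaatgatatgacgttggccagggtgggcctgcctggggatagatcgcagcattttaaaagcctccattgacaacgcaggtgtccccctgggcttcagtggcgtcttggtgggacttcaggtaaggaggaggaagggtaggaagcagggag
Gzma: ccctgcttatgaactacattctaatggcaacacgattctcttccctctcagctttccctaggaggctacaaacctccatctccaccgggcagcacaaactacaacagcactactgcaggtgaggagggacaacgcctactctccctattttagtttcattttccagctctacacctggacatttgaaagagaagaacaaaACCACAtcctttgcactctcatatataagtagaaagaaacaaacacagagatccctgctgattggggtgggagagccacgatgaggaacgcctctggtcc

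The gamma activated site was searched as TTCNNNGAA and the interferon-stimulated response element as GAAANNGAAA, both strands, the latter chosen after the data were seen; a stretch could count under both. The former was in 8.3% and the latter in 3.44% of all promoters. Of the IFN-γ-induced genes, 13 of 23 matched the table, and of their 15 promoters 7 (46.7%) held the gamma activated site and 11 (73.3%) the response element. Of the type I interferon-stimulated genes, 18 of 24 matched, and 10 of their 20 promoters held the response element. The RUNX letters were in 1 of 15 and 2 of 20 of these promoters. The gamma activated site did not separate the sets as clearly. It was in 8 of the 51 NK gene promoters (15.7%), 3 of the 20 type I promoters (15%) and 2 of 22 MHC class I promoters (9.09%). The T-box letters GGTGTGA, searched for the factors T-bet and Eomes, were in 5 of the 51 NK gene promoters (9.8%), in 3 of the 20 type I promoters (15%) and in 3.98% of all promoters. Shown are Irf1 (chr11:53769764-53770063, plus strand), an early transcription factor of the response, and Psmb8 (chr17:34197945-34198244, plus strand), an immunoproteasome subunit, with the gamma activated site in capitals, and Isg15 (chr4:156200769-156201068, minus strand), a ubiquitin-like protein, with 3 overlapping matches to the response element in capitals. These 3 genes were chosen after their values were seen. Psmb8 measured 49.1, 23.1 and 42.1 CPM in CD8L and 13.6, 2.43 and 12.3 CPM in ΔNK tumors, with no overlap. A match is a description of letters and not a measured binding site.
Irf1: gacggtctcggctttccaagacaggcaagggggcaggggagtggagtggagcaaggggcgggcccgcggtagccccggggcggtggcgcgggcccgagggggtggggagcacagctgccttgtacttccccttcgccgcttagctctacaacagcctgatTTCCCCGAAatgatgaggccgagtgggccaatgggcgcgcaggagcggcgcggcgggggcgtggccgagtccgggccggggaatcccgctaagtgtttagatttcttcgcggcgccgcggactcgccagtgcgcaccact
Psmb8: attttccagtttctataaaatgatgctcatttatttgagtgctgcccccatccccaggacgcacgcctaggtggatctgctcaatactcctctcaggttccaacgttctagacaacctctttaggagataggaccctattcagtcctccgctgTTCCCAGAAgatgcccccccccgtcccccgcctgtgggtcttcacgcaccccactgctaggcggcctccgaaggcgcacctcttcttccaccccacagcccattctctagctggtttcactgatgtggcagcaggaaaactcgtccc
Isg15: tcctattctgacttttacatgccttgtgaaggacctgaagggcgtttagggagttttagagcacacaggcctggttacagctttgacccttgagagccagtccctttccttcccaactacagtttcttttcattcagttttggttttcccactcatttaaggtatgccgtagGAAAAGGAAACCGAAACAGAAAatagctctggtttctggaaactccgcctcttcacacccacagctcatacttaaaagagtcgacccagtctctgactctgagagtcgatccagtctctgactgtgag

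Genes of NK cell receptors were lower in ΔNK than in CD8L tumors, many of them near the limit of detection after depletion. All 14 activating receptor genes tested had negative fold changes, with a median log2 fold change of -2.61 (-2.39 with the gene at 0 in ΔNK tumors set to its floor) beside -0.018 over all genes tested, and for 10 of the 14 the unadjusted p was at most 0.05 (5.33% of all genes). DESeq2 called 6 of them (0.860% of all genes were called lower). The filter on low counts used all 12 libraries. In an edgeR fit of the 6 libraries alone, 7 of the 14 passed it. Of those, 2 were lower at an unadjusted p of at most 0.05, and the median was -1.19. Ncr1 gave 27, 4 and 28 reads in the CD8L tumors and 1, 0 and 1 in the ΔNK tumors, a ratio at equal depth of 26.9 (95% counting interval 7.12 to 227). Klrb1c, encoding NK1.1, gave 62, 7 and 40 reads against 2, 1 and 0 (ratio 33.1, counting interval 11 to 163). CD8L tumor 2 was the lowest of its group for both genes and still above every ΔNK tumor. Klrk1, whose product NKG2D recognizes stress ligands, measured 8.72, 3.17 and 5.68 counts scaled to library size (CPM) in CD8L and 1.46, 0.182 and 0.626 in ΔNK tumors, a log2 fold change of -2.91 ± 0.69 (SE). Klrb1f had 6, 4 and 8 reads in CD8L tumors and none in ΔNK tumors, at least 5.47-fold lower against a floor of 3 counts over the group. Cd226, encoding DNAM-1, had a log2 fold change of -2.89 ± 0.77 and also no overlap. Of the 14 genes, 10 were lower without overlap, beside 6.88% of all genes, and the rest overlapped. Fcgr3, the low-affinity Fc receptor of NK cells and macrophages, measured 36.6, 19.4 and 27.2 CPM against 22.1, 6.43 and 18.7. Cd160 measured 0.758, 0.556 and 1.02 CPM against 0.637, 0.546 and 0.0522.

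**Figure D1:**
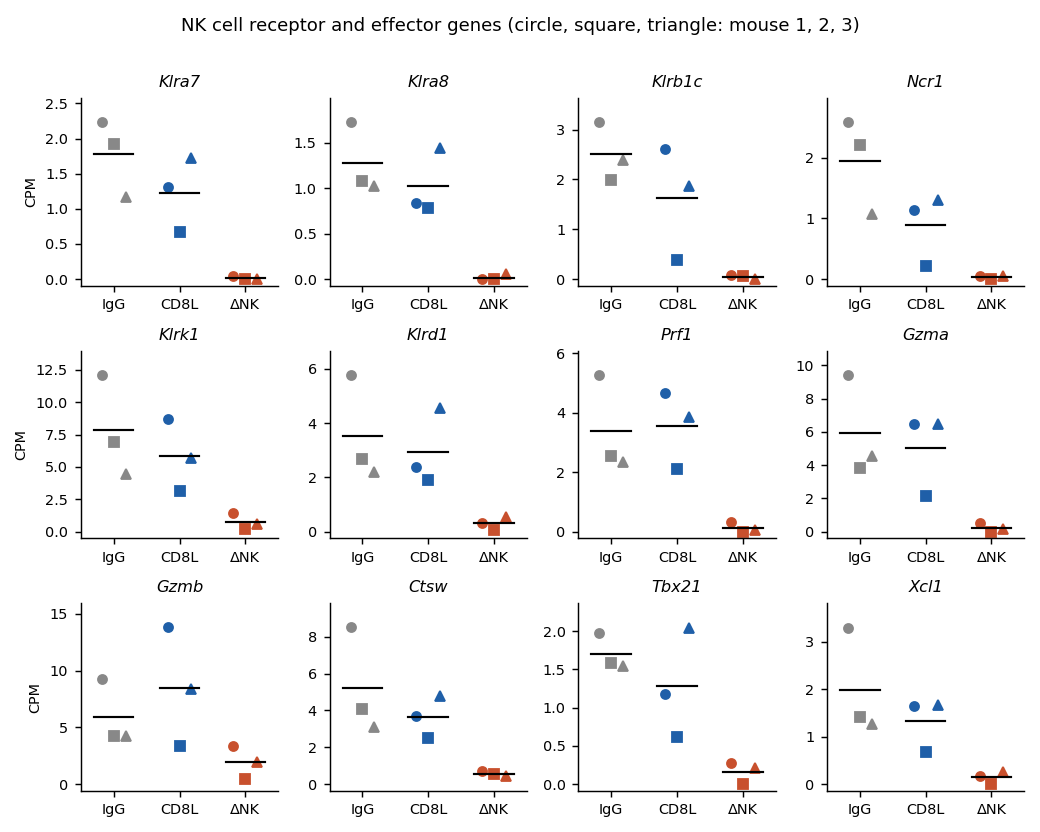
Levels of 12 NK cell receptor, effector, transcription factor and cytokine genes in CPM (linear axes) for the IgG, CD8L and ΔNK tumors, one symbol per mouse, with a bar at the mean of 3. In all 12 panels the 3 ΔNK values lie below the 3 CD8L values, and Klra7 is at or under 0.0455 CPM in every ΔNK tumor.

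Among the inhibitory receptors, 15 of 17 genes were tested, all 15 with negative fold changes and a median of -3.25, or -3.18 with the gene at 0 in ΔNK tumors set to its floor. Of these, 13 had an unadjusted p of at most 0.05 (5.33% of all genes were lower at that p). DESeq2 called 7 (0.860% of all genes were called lower). In the edgeR fit of the 6 libraries alone, 7 passed the filter, 5 of them lower at that p, with a median of -3.30. Klra7 (chr6:130218605-130233322), a Ly49 gene, gave 31, 12 and 37 reads in CD8L tumors and 1, 0 and 0 in ΔNK tumors. Klra8, the Ly49H gene of C57Bl6 mice (chr6:130115226-130129898), gave 20, 14 and 31 against 0, 0 and 1. Ly49H is an activating receptor, kept here with its family in the inhibitory list. These were the 2 genes with the smallest adjusted p, 0.131 each by edgeR, with log2 fold changes of -5.74 ± 0.77 and -5.45 ± 0.72. Ly49 genes resemble each other closely, so how reads were divided among single members is uncertain. Klrc1 (NKG2A) gave 68, 8 and 76 reads against 2, 0 and 4, and its partner Klrd1 (CD94) gave 57, 34 and 98 against 7, 1 and 10. Klre1, a lectin-like receptor of NK cells, gave 36, 11 and 55 against 4, 0 and 0. No ΔNK tumor reached the lowest CD8L tumor for these 3 genes. Tigit, shared with activated T cells, overlapped (0.885, 0.556 and 2.75 CPM against 0.592, 0 and 0.209), as did Klra3, with 26, 0 and 9 reads against 1, 0 and 5. Summed over 28 tested receptor genes without Fcgr3, NK receptor RNA was 41.5 ± 17.3 CPM (SD, n = 3) in CD8L and 8.36 ± 5.05 CPM in ΔNK tumors.

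Cytotoxic effector genes followed the receptors. Of 16 such genes, 15 were tested, all with negative fold changes (median -2.61, or -2.57 with genes at 0 set to their floor), 12 had an unadjusted p of at most 0.05, and DESeq2 called 6. Prf1 gave 111, 38 and 83 reads in CD8L tumors and 7, 0 and 1 in ΔNK tumors, 26.4 times less at equal depth (counting interval 13.2 to 61.9). Gzma gave 154, 39 and 139 reads against 11, 0 and 3, a log2 fold change of -4.41 ± 0.81. For both, the highest ΔNK tumor lay below the lowest CD8L tumor. Gzmb, made by NK cells and activated CD8+ T cells alike, measured 13.8, 3.34 and 8.37 CPM against 3.32, 0.485 and 1.98, where CD8L tumor 2 and ΔNK tumor 1 nearly met. Ctsw, a cathepsin of cytotoxic cells, measured 3.71, 2.5 and 4.79 CPM against 0.729, 0.546 and 0.418, with a log2 fold change of -2.68 ± 0.51. Fasl, the death ligand, had 21, 7 and 27 reads against 3, 1 and 4, and Tnfsf10, encoding TRAIL, measured 28.4, 20.1 and 23.1 CPM against 10.8, 3.70 and 15.2. DESeq2 called Prf1, Gzma, Ctsw, Fasl, Tnfsf10 and Cst7. Gzmm, another granzyme, differed by less (1.05, 1.11 and 1.26 CPM against 0.774, 0.971 and 0.835), with a log2 fold change of -0.41 ± 0.31. Srgn, encoding the proteoglycan of the granule matrix that many leukocytes make, overlapped between the groups. Without CD8L tumor 3 and ΔNK tumor 3, the libraries with the most neuron marker RNA in their groups, 7 effector genes and 7 activating receptor genes were at an unadjusted p of at most 0.05. In an alternative fit by limma voom with sample quality weights, 5 effector genes and 12 activating receptor genes were.

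Signaling adaptors, transcription factors and cytokine receptors of NK cells had list medians nearer 0 than the receptor and effector lists, with single members far below. Of 12 transcription factor genes, 5 had an unadjusted p of at most 0.05 and were lower, with a list median of -0.78, and 3 without CD8L tumor 3. Tbx21, encoding T-bet, which drives the NK cell and type 1 T cell programs, gave 28, 11 and 44 reads against 6, 0 and 4 and was called by DESeq2. Runx3 measured 4.25, 2.39 and 4.42 CPM against 1.87, 0.303 and 1.36, with a log2 fold change of -1.63 ± 0.57. Ikzf3, encoding the lymphocyte factor Aiolos, was also called, at -2.38 ± 0.75. Among 13 adaptor genes the median was -0.81, with 7 members at an unadjusted p of at most 0.05, a count that dropped to 2 without CD8L tumor 1, without CD8L tumor 3 or without ΔNK tumor 2, and was 11 with the replicate number as a block. Lck, the proximal kinase of T and NK cells, measured 8.00, 2.28 and 6.84 CPM against 2.14, 0.182 and 2.04. Zap70 and Vav1 had log2 fold changes of -1.61 ± 0.59 and -0.72 ± 0.29. Receptors for the cytokines that arm NK cells were lower, with 9 of 16 genes of the survival and trafficking list at an unadjusted p of at most 0.05. DESeq2 called 6 of the 16, beside 0.860% of all genes called lower. Il18r1 gave 49, 23 and 92 reads against 6, 0 and 6. Il2rb, the chain shared by the receptors for IL-2 and IL-15, measured 16.8, 5.67 and 22.2 CPM against 3.96, 0.425 and 2.66 (log2 fold change -2.64 ± 0.69).

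Of the cytokines that NK cells supply, some separated the groups and others overlapped. Xcl1, the chemokine for cross-presenting dendritic cells, gave 39, 12 and 36 reads in CD8L and 4, 0 and 5 in ΔNK tumors and was called by DESeq2. Lta, encoding lymphotoxin alpha, gave 7, 10 and 3 reads against none in 3 ΔNK tumors and was called as well, and Ltb gave 88, 18 and 94 against 19, 0 and 17. Flt3l, the growth factor of dendritic cells, measured 1.56, 1.89 and 3.68 CPM against 0.774, 1.09 and 1.25, without overlap. Ifng gave 49, 11 and 22 reads against 18, 0 and 9, so that ΔNK tumor 1 lay above CD8L tumor 2, and its log2 fold change of -1.48 ± 0.86 did not pass at an unadjusted p of 0.05. Ccl5 measured 48.8, 21.9 and 33.9 CPM against 34.9, 17.8 and 21.0, also with overlap. Of the 10 cytokine genes tested, 4 were lower at an unadjusted p of at most 0.05, and 2 without CD8L tumor 3.

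Interferon-inducible genes were lower in ΔNK tumors as a block, although Ifng itself overlapped between the groups. All 23 IFN-γ-induced genes had negative fold changes (median -1.74), 21 of them without overlap, beside 6.88% of all genes, and 17 with an unadjusted p of at most 0.05. DESeq2 called 2, Gbp9 and Gbp2b, beside 0.860% of all genes called lower. The depth of the drop differed between the 3 ΔNK tumors. The mean log2 CPM of the 23 genes was 6.79, 5.94 and 6.54 in CD8L tumors and 5.25, 1.71 and 5.23 in ΔNK tumors, and ΔNK tumor 2 was also the one with no Ifng read. Gbp4, a guanylate-binding protein, measured 339, 203 and 307 CPM against 87.1, 1.94 and 84.3. Gbp9, of the same family, measured 62.7, 47.8 and 65.0 CPM against 16.4, 2.49 and 22.3. Cd274, encoding PD-L1, measured 97.9, 71.1 and 105 CPM against 40.0, 8.98 and 46.2. The 3 genes did not overlap. Without ΔNK tumor 2 the list median was -1.21 and 20 genes had an unadjusted p of at most 0.05. Without CD8L tumor 1 that count was 4, and without CD8L tumor 3 it was 11.

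**Figure D2:**
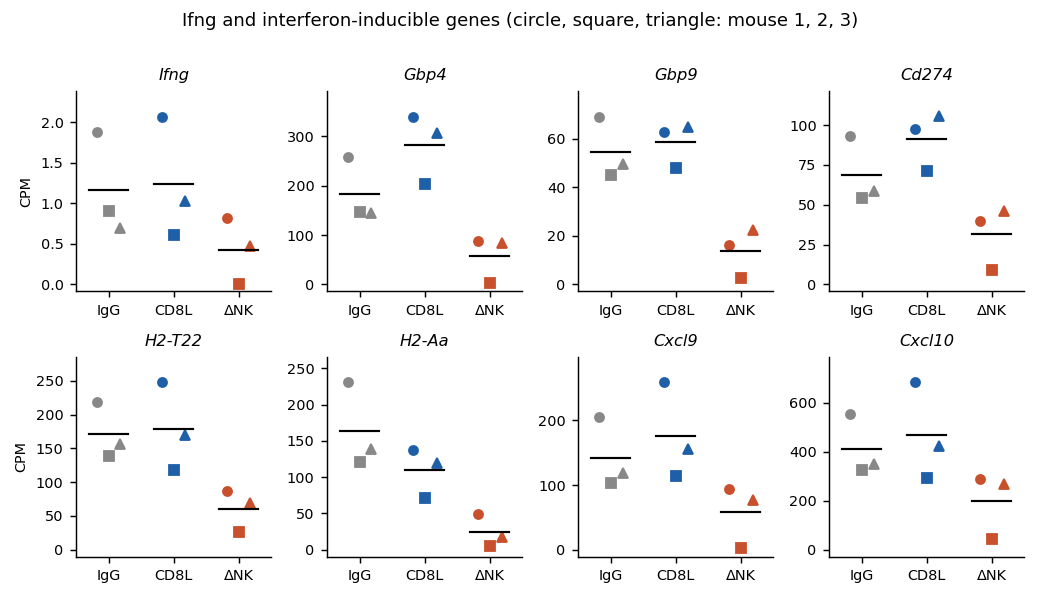
Levels of Ifng and of 7 interferon-inducible genes in CPM (linear axes) for IgG, CD8L and ΔNK tumors, one symbol per mouse, with a bar at the mean of 3. Ifng overlaps between CD8L and ΔNK tumors, the other 7 genes do not, and ΔNK tumor 2 (square) is the lowest tumor in every panel.

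Type I interferon-stimulated genes, which overlap with IFN-γ targets in their regulation, were lower in the same tumors. All 24 had negative fold changes (median -1.33). Of them, 22 had an unadjusted p of at most 0.05, beside 5.33% of all genes lower at that p. Also 22 were lower without overlap, beside 6.88% of all genes. DESeq2 called 3 of the 24, beside 0.860% of all genes called lower. Ifih1, encoding the RNA sensor MDA5, measured 84.0, 58.7 and 85.1 CPM against 41.0, 11.5 and 42.1. Xaf1, an apoptosis-associated factor, measured 73.0, 53.3 and 67.5 CPM against 31.8, 9.83 and 35.2. Both were called. Ifit2, an interferon-induced RNA-binding protein, differed by less (249, 204 and 220 CPM against 115, 95.3 and 166; log2 fold change -0.84 ± 0.25). Oas2, an RNA-activated synthetase, had -1.60 ± 0.49. Over the 8 genes of the IFN-γ receptor and signaling chain the median was -0.24, and 3 were lower at an unadjusted p of at most 0.05. Of the 8, 4 were lower without overlap, beside 6.88% of all genes. That count of 3 was 1 without CD8L tumor 1, and 2 without CD8L tumor 3 or ΔNK tumor 2. Stat2 had the most negative log2 fold change of the chain (-1.21 ± 0.40), while Jak1 measured 151, 144 and 156 CPM against 135, 123 and 138, and Jak2 had a log2 fold change of -0.29 ± 0.13. The count of 22 dropped to 9 without CD8L tumor 1, and the list median was -0.88 without ΔNK tumor 2.

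MHC class I genes, whose products are both the ligands of inhibitory NK receptors and the platform for CD8+ T cell recognition, were lower in ΔNK tumors. Of 23 genes for heavy chains, peptide loading and the immunoproteasome, 18 had an unadjusted p of at most 0.05 (median -1.39). Over all genes, 5.33% were lower at that p. DESeq2 called 4 of the 23, beside 0.860% of all genes called lower. H2-T22, a nonclassical heavy chain, measured 249, 118 and 170 CPM against 86.8, 25.5 and 69.7. H2-M3, which presents formylated peptides, measured 7.71, 5.12 and 8.75 CPM against 3.83, 1.58 and 2.82. H2-Q6 measured 18.2, 12.4 and 33.3 CPM against 4.46, 0.728 and 6.32, and H2-Q7, a close relative with which it may share reads, had a log2 fold change of -2.20 ± 0.61. The first 3 of these were called and none of the 4 overlapped. MHC class II genes, mostly expressed by antigen-presenting cells, had a median of -1.79 over 13 genes, 12 with an unadjusted p of at most 0.05 and none called by DESeq2. H2-Aa measured 137, 71.3 and 120 CPM against 48.7, 5.28 and 17.4, and H2-Eb1 measured 105, 50.1 and 86.2 against 33.9, 3.22 and 15.6. Cd74, the invariant chain that guides class II assembly, had -2.15 ± 0.67. Rfx5, a factor of the class II promoter complex, differed by far less (-0.47 ± 0.17). The counts at an unadjusted p of at most 0.05 were 10 for class I and 6 for class II without CD8L tumor 1, 7 for class II without ΔNK tumor 3, and 11 and 4 without CD8L tumor 3 and ΔNK tumor 3.

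Chemokines for T cells and their receptors were lower for some members and overlapped for others. Of 13 T cell chemokine genes tested, 3 had an unadjusted p of at most 0.05 and DESeq2 called none (median -1.22). Cxcl16, the ligand of CXCR6, measured 18.2, 10.01 and 17.4 CPM against 9.02, 2.55 and 7.67, and Ccl22, made by dendritic cells and attracting CCR4+ T cells, measured 3.29, 2.45 and 3.91 against 1.64, 0.182 and 0.365. Cxcl11 measured 32.3, 13.4 and 20.1 CPM against 12.4, 0.849 and 8.61. Cxcl9 measured 259, 114 and 156 CPM against 94.5, 2.67 and 76.2, and Cxcl10 measured 686, 293 and 423 against 289, 45.3 and 267. For these 5 genes the groups did not overlap, but the log2 fold changes of Cxcl9 (-1.60 ± 0.84) and Cxcl10 (-1.22 ± 0.57) missed an unadjusted p of 0.05. Ccl19 had no read in any of the 6 tumors. The count of 3 was 1 without CD8L tumor 1, 5 without ΔNK tumor 1 and 6 with the replicate number as a block.

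Of 14 chemokine receptor genes, 5 were lower at an unadjusted p of at most 0.05 (5.33% of all genes). DESeq2 called 3, Ccr9, Xcr1 and Cxcr6, beside 0.860% of all genes called lower. Cxcr6, carried by tissue-resident and activated lymphocytes, measured 2.36, 2.23 and 2.51 CPM against 0.319, 0.364 and 0.783 (log2 fold change -2.26 ± 0.60). Ccr9 gave 23, 16 and 74 reads against 4, 0 and 4. Cxcr3, the receptor for CXCL9, CXCL10 and CXCL11, measured 4.72, 3.12 and 4.42 CPM against 5.83, 3.70 and 2.24, and ΔNK tumor 1 had the highest value of all 6. Its log2 fold change was -0.06 ± 0.44 and changed sign with the libraries included. Ccr7 overlapped (2.74, 1.06 and 3.30 CPM against 1.32, 0.0607 and 0.157). The count of 5 was 3 without CD8L tumor 3.

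Among 15 genes for vascular entry, the 3 lower at an unadjusted p of at most 0.05 were those of leukocytes rather than of the vessel wall: Itgal, the alpha chain of LFA-1, Itgb2, its beta chain, and Selplg, the selectin ligand. Itgal measured 32.3, 24.0 and 33.8 CPM against 17.3, 14.1 and 16.8 (log2 fold change -0.90 ± 0.21) and was called by DESeq2. Icam1, the endothelial ligand of LFA-1, measured 13.9, 8.68 and 12.9 CPM against 8.52, 2.24 and 8.09, lower in every ΔNK tumor but short of an unadjusted p of 0.05. Vcam1 measured 13.7, 9.90 and 25.0 CPM against 5.6, 1.76 and 13.3, with overlap. Endothelial markers had a median of 0.08 over 10 genes and no member at an unadjusted p of at most 0.05. Pecam1 measured 23.8, 28.1 and 27 CPM against 27.3, 29.3 and 32.6. The count for vascular entry was 7 without CD8L tumor 2, 6 without ΔNK tumor 1, without ΔNK tumor 3 or with the replicate number as a block, and 2 without CD8L tumor 1 or ΔNK tumor 2.

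**Figure D3:**
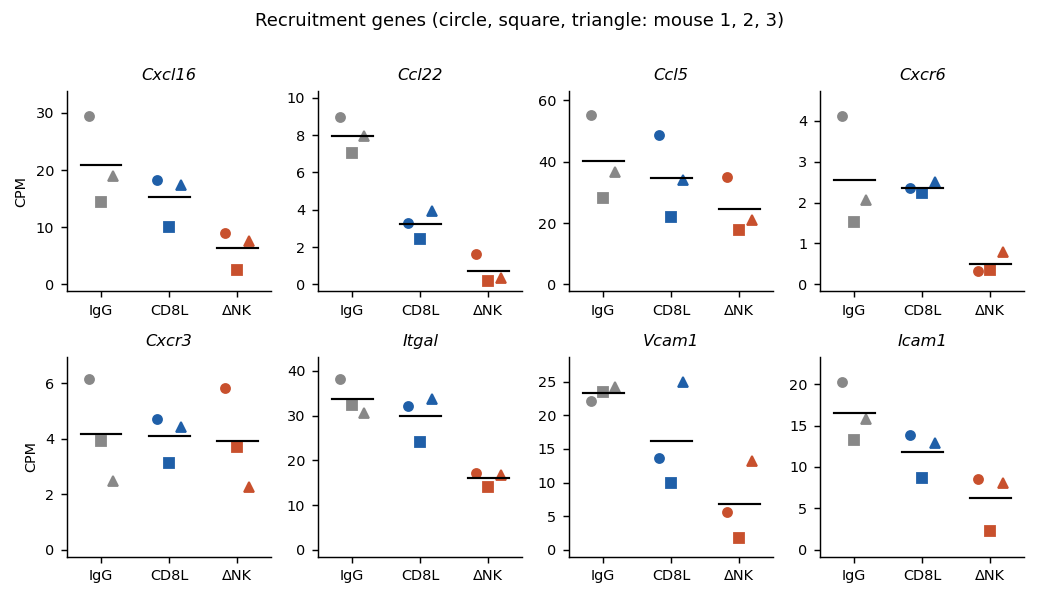
Levels of 8 genes for T cell recruitment in CPM (linear axes) for IgG, CD8L and ΔNK tumors, one symbol per mouse, with a bar at the mean of 3. Cxcl16, Ccl22, Cxcr6, Itgal and Icam1 separate the 3 CD8L from the 3 ΔNK tumors, whereas Ccl5, Cxcr3 and Vcam1 overlap.

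T cell genes were also lower in ΔNK tumors, although the CD8L tumors had themselves been chosen for few CD8+ T cells, so that these genes are not independent of how the groups were formed. Cd8a measured 4.34, 1.84 and 6.89 CPM in CD8L tumors and 1.14, 0.182 and 0.365 in ΔNK tumors, beside a mean of 5.40 in IgG tumors. Cd8a and Cd8b1 had log2 fold changes of -2.90 ± 0.75 and -2.95 ± 0.87, and DESeq2 called both. Of 11 general T cell markers, 8 were lower at an unadjusted p of at most 0.05 (median -2.20), beside 5.33% of all genes. DESeq2 called 4 of the 11, beside 0.860% of all genes called lower. Cd3e, of the T cell receptor complex, measured 2.78, 0.612 and 5.12 CPM against 0.637, 0.243 and 0.261, with ΔNK tumor 1 just above CD8L tumor 2. The count of 8 was 5 without CD8L tumor 3 or ΔNK tumor 3, and 3 without both. In the alternative fit by limma voom with sample quality weights it was 0, with a median of -1.68. Of Cd8a and Cd8b1, 0 were at that p in the voom fit. Checkpoint genes had a median of -1.42 over 16 members, 11 at an unadjusted p of at most 0.05, a count that was 3 without CD8L tumor 3 and 6 without ΔNK tumor 2, and DESeq2 called none. Havcr2, encoding TIM-3, measured 8.26, 6.73 and 11.2 CPM against 5.15, 4.91 and 5.90. Btla gave 27, 18 and 32 reads against 15, 5 and 3.

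Markers of cross-presenting and of monocyte-derived dendritic cells were lower in ΔNK tumors. Xcr1, the receptor for XCL1 on cross-presenting dendritic cells, gave 26, 17 and 28 reads in CD8L and 7, 2 and 4 in ΔNK tumors, and Clec9a, a receptor for dead cells on the same subset, gave 24, 28 and 39 against 4, 7 and 5. Both were called by DESeq2, and of the 12 markers 7 were lower at an unadjusted p of at most 0.05 (median -1.29), and 3 without CD8L tumor 3 or ΔNK tumor 3, and 4 without ΔNK tumor 2. Cd209a, a marker of monocyte-derived dendritic cells, gave 31, 13 and 24 reads against 8, 1 and 7. The CPM summed over the 12 markers did not separate the groups (200, 161 and 191 against 208, 171 and 183). Macrophage markers differed by less, with a median of -0.73 over 16 genes and 4 lower at an unadjusted p of at most 0.05. Their fold changes were mixed, from -1.95 to 2.05, and 14 of the 16 were negative. Only 1 was lower without overlap (6.25%, near the 6.88% of all genes). It was Ly6c2, a marker of inflammatory monocytes (36.9, 16.5 and 21.2 CPM against 7.97, 0.303 and 11). C1qa, made by macrophages and microglia, measured 122, 60.6 and 126 CPM against 78.5, 29.4 and 60.6, and Csf1r had a log2 fold change of -0.71 ± 0.27. The macrophage count of 4 was 1 without CD8L tumor 1, CD8L tumor 3 or ΔNK tumor 2, and 10 without ΔNK tumor 1 or with the replicate number as a block. With the block, and without ΔNK tumor 2, 1 macrophage marker was higher at that p. Microglia markers had a median of -0.62 over 12 genes, 5 of them at an unadjusted p of at most 0.05. P2ry13 measured 6.53, 5.28 and 11.3 CPM against 2.5, 3.15 and 5.01, and that count was 0 by edgeR without CD8L tumor 3, 1 without ΔNK tumor 2 and 2 without CD8L tumor 1.

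The pan-leukocyte gene Ptprc, encoding CD45 and chosen after its values were seen, measured 52.3, 35.9 and 60.3 CPM in CD8L and 22.9, 6.55 and 21.3 CPM in ΔNK tumors, with no overlap. Relative to Ptprc, summed NK receptor RNA was 0.965, 0.598 and 0.870 in CD8L and 0.569, 0.463 and 0.422 in ΔNK tumors, still without overlap. Summed effector RNA per Ptprc overlapped (1.87, 1.29 and 1.58 against 1.48, 1.51 and 1.74). Summed macrophage marker RNA per Ptprc was higher in every ΔNK tumor (30.8, 25.5 and 26.2 against 56.6, 91.5 and 44.8), as was that of microglia markers (5.33, 5.33 and 5.94 against 9.10, 24.3 and 10.3) and that of dendritic cell markers (3.83, 4.48 and 3.16 against 9.07, 26.2 and 8.57). None of these sums separated the groups before the division, while Ptprc was lower in every ΔNK tumor. The higher ratios therefore do not show more RNA of these markers in ΔNK tumors. T cell markers per Ptprc overlapped (0.928, 0.601 and 2.23 against 0.954, 1.88 and 1.60). MHC class II genes also overlapped (24.2, 18.6 and 18.9 against 26.1, 24.2 and 16.4), as did IFN-γ-induced genes, with 151, 104 and 104 against 124, 38.2 and 120. In these sums the most abundant genes weigh most. For T cell markers the sum was higher in ΔNK tumor 3 than in ΔNK tumor 1 (34.0 and 21.9 CPM), but their mean log2 CPM was lower (-0.05 and 0.39). The T cell ratio is therefore not a measure of T cells per leukocyte. These ratios were computed after the data were seen and had no test.

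Markers of brain cells differed between tumors of the same group. The neuron marker mean log2 CPM over 18 genes was 2.94, 3.10 and 5.37 in CD8L and 2.82, 2.44 and 4.20 in ΔNK tumors, with a median log2 fold change of -1.003 and no member at an unadjusted p of at most 0.05. That median was 0.40 without CD8L tumor 3. Oligodendrocyte markers showed the same pair of tumors as highest (3.25, 2.63 and 5.97 against 3.11, 2.82 and 4.13). With the neuron marker mean as a covariate, 19 of the 23 IFN-γ-induced genes and 11 of the 14 activating receptors had an unadjusted p of at most 0.05 and were lower. Other lists moved the other way with it. Microglia markers at that p went from 5 to 3 and dendritic cell markers from 7 to 6. The oligodendrocyte median went from -1.42 to -0.39. Melanocyte markers, which stand for the tumor cells, had a median of -0.06 over 17 genes and a mean log2 CPM from 8.11 to 8.39 in the 6 tumors. Ligands for NK receptors on melanoma cells had a median log2 fold change of -0.07 over 9 genes, 6 of them negative, from -1.44 to 0.35. At an unadjusted p of at most 0.05, 2 were lower and none higher, and none was lower without CD8L tumor 3. Nectin2 leaned the other way, at 25.0, 18.5 and 14.1 CPM against 28.6, 21.5 and 23.5.

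**Figure D4:**
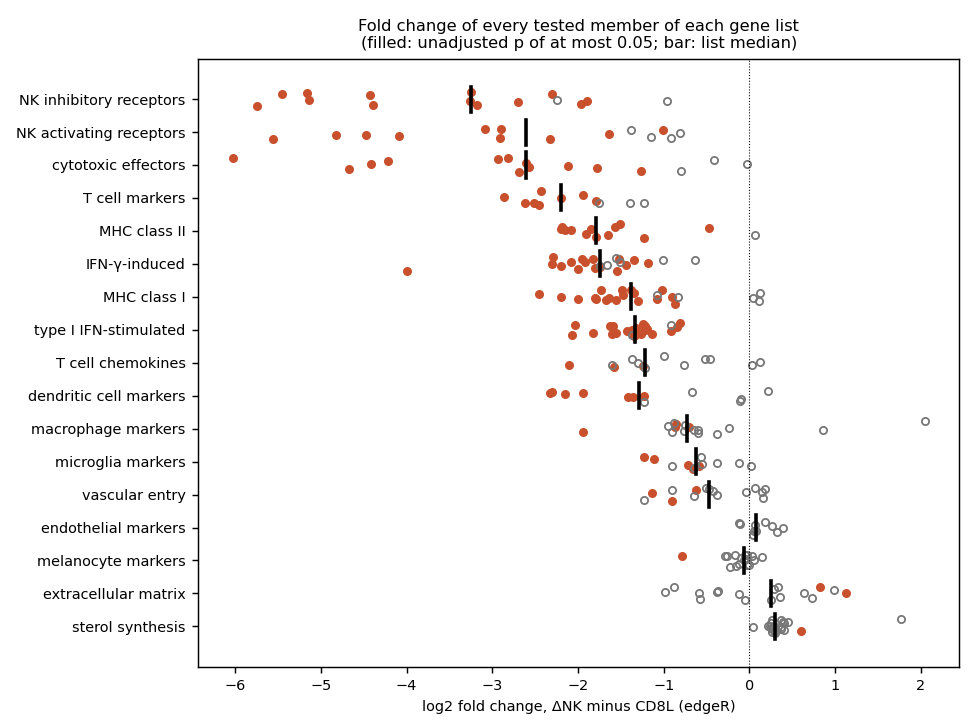
Log2 fold change (ΔNK minus CD8L, edgeR) of every tested member of 17 gene lists, one point per gene with random vertical spread, filled at an unadjusted p of at most 0.05, with a bar at the list median. The medians run from -3.25 for NK inhibitory receptors through -1.74 for IFN-γ-induced genes to 0.08 for endothelial markers and 0.30 for sterol synthesis.

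Fewer genes were higher in ΔNK tumors and the differences were smaller. Among genes at a mean of at least 2 log2 CPM, with no overlap and an unadjusted p of at most 0.05, the 10 with the largest differences had log2 fold changes of at most 1.21. Col2a1, the main collagen of cartilage, measured 7.5, 5.67 and 3.54 CPM in CD8L and 13.9, 13.7 and 8.87 in ΔNK tumors, and Col11a2, which forms mixed fibrils with it, measured 28.9, 40.2 and 20.5 against 71.2, 69.3 and 52.5. Hapln1, a link protein that ties hyaluronan to proteoglycans, measured 292, 282 and 109 CPM against 476, 375 and 360. Over 17 matrix genes the median was 0.25 and 2 were higher at an unadjusted p of at most 0.05, against 0.739% of all genes, while 8 of the 17 had negative fold changes. The count of 2 was 0 without ΔNK tumor 1 and 1 without ΔNK tumor 2, CD8L tumor 2 or CD8L tumor 3. The list median ranged from 0.04 to 0.46 with 1 of the 6 libraries left out. Afap1l2, an adaptor of Src signaling, measured 25.5, 26.5 and 22.3 CPM against 38.4, 42.9 and 37.8 (log2 fold change 0.68 ± 0.15), and Ptp4a3, a phosphatase, measured 37.2, 33.0 and 34.4 against 53.6, 45.6 and 46.7 (0.48 ± 0.11). DESeq2 called both.

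Kank4, a cytoskeletal regulator, and Ctgf, a matricellular factor, were higher in every ΔNK tumor than in every CD8L tumor, at 0.79 ± 0.30 and 0.82 ± 0.33. Sterol synthesis genes leaned the same way by little, all 24 with positive fold changes, a median of 0.30 and 7 without overlap (3.23% of all genes). CD8L tumor 3, high in neuron markers, was the lowest of the 6 tumors for Hapln1 and Col2a1, and without it the sterol median was 0.11. The part of brain tissue in these differences was not tested.

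**Figure D5:**
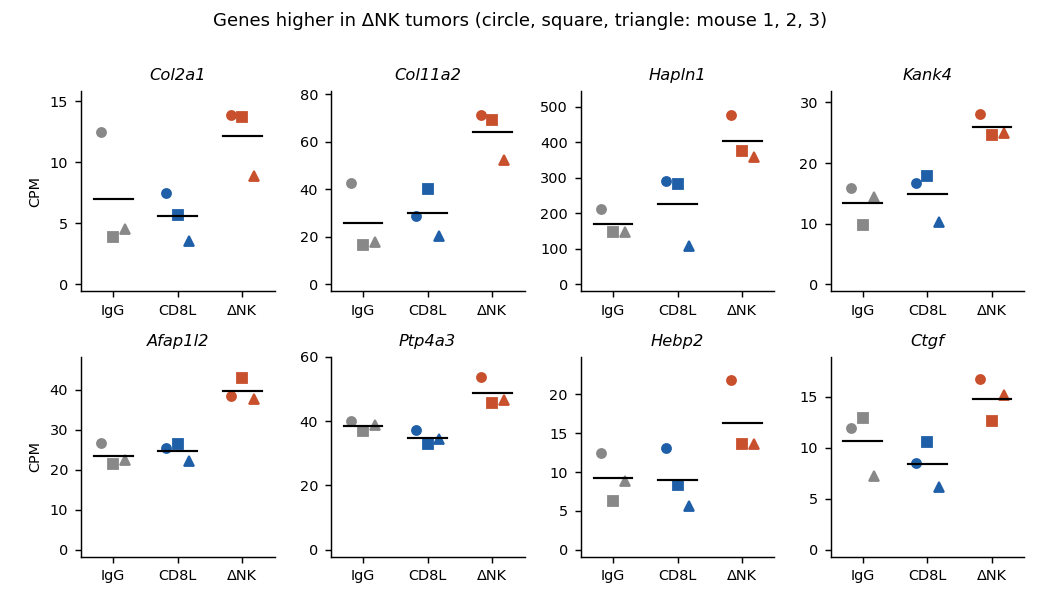
Levels of 8 genes that were higher in ΔNK tumors, in CPM (linear axes) for IgG, CD8L and ΔNK tumors, one symbol per mouse, with a bar at the mean of 3. In each panel the 3 ΔNK values lie above the 3 CD8L values, most closely for Hebp2, where the highest CD8L tumor measured 13.1 and the lowest ΔNK tumor 13.6 CPM.

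Further genes were named for a small p in DESeq2. Sh2d2a, an adaptor of activated T and NK cells, measured 4.25, 2.11 and 8.65 CPM against 0.865, 0.0607 and 0.522. Ly6i, a member of the Ly6 surface proteins, had a log2 fold change of -3.30 ± 0.74, Ifi214, of the interferon-inducible Ifi200 family, -3.70 ± 0.67, and Gpr171, a receptor of lymphocytes, -2.65 ± 0.54. Fndc3a stood apart by its low spread: 89.0, 91.8 and 89.4 CPM in CD8L against 67.5, 67.1 and 70.7 in ΔNK tumors, a log2 fold change of -0.40 ± 0.09. Among abundant genes without overlap, AW112010, a transcript of activated leukocytes, measured 18.2, 7.07 and 15.8 CPM against 3.51, 0.789 and 4.07. Apol10b and Tgtp1, an IFN-γ-induced GTPase, had log2 fold changes of -2.20 ± 0.68 and -2.30 ± 0.89.

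The IgG tumors place the 2 groups, with the caution that these comparisons share libraries. Relative to IgG, the median log2 fold change of IFN-γ-induced genes was -1.40 in ΔNK and 0.34 in CD8L tumors. For MHC class I these were -1.60 and 0.00, for cytotoxic effectors -2.32 and 0.02, and for activating receptors -3.28 and -0.53. Of the genes described here, edgeR called Klra7 and Klra8 in ΔNK against IgG (adjusted p = 0.0407 each by edgeR), and none in CD8L against IgG, where the smallest adjusted p by edgeR was 0.974. Gzmb was 0.53 above IgG in CD8L and 1.58 below it in ΔNK tumors on the log2 scale.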

How the data were processed

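Poly(A) RNA of whole brain tumors was sequenced, 3 mice per group and 12 libraries in all, with 16336993 to 26416214 assigned reads. The authors deposited raw read counts per gene and FPKM values; per the submitters' processing notes the tools were STAR 2.6.1d, StringTie 1.3.3b, featureCounts 1.5.0-p3 and DESeq2 1.26.0 on GRCm38.p6, and the strand setting is not given in the sources used here. In each library the deposited FPKM was the count times 1 constant per gene, divided by the library total.

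The deposited counts were normalized by TMM, filtered by filterByExpr (17320 of 54532 genes kept) and tested in edgeR 4.0.16 (quasi-likelihood, R 4.3.3) with all 12 libraries in 1 fit, which shares 1 estimate of the spread with 8 residual degrees of freedom. The contrast was ΔNK minus CD8L, called at p and Benjamini-Hochberg adjusted p of at most 0.05 over all genes. With 3 against 3 an exact permutation test cannot go below p = 0.1 for a single gene. CPM values are counts scaled to the TMM-adjusted library size. Overlap was judged on log2 CPM. Counting intervals are exact at 95% and cover counting error only; a group at 0 counts was set to a floor of 3 counts. DESeq2 1.42.0 and limma 3.58.1 were alternatives, with other normalizations, filters, prior counts, fits of the 6 libraries alone, a neuron marker covariate and each library left out. The edgeR test was run on simulated counts with 50 genes lowered at each of 4 sizes. It called 10 of those lowered 2-fold, 31 at 4-fold, 41 at 8-fold and 45 at 16-fold, with 3 false calls. Many 2-fold and 4-fold differences were thus missed. The lowered genes were drawn above a minimum mean count, so genes with a few reads were not checked.

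The groups share replicate numbers. Deviations of same-numbered ΔNK and CD8L tumors from their group means correlated at 0.588, 0.476 and 0.536, and the other pairings were below 0. Deviations sum to 0 within a group, so positive same-numbered values push the others below 0, and their sign adds no support. From these data alone the numbers were taken as a pairing, used only as a block in alternatives. The labels do not say what a number marks, and the part of brain tissue in this pattern was not tested. Replicate pairs differed by more than sampling noise (chi-square per degree of freedom 19.1 to 95.9), so no library was counted as a duplicate.

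The members and the 40 gene lists were chosen with earlier results of these data known. Genes were named by rule: all members of the receptor and effector lists; the 10 largest differences in each direction among genes with an unadjusted p of at most 0.05, no overlap and a mean log2 CPM of at least 2; up to 4 members with the smallest p in each other list; genes the study names for T cell recruitment; and DESeq2 calls with the smallest p. Some genes that met the rule are not reported here.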

Additional observations from a re-analysis of the deposited data

How the results depend on the processing

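No gene was called under any edgeR or limma alternative (smallest adjusted p = 0.0508, edgeR without a filter); only DESeq2 made calls, 158 with 12 and 19 with 6 libraries, and 411 with 12 libraries and a replicate block. Genes lower at an unadjusted p of at most 0.05 numbered 614 in edgeR on 6 libraries, 1433 with a replicate block on those 6, 534 without the 2 libraries richest in neuron markers, and 523 to 1133 with 1 library left out. Genes higher numbered 247 in DESeq2, 272 in limma voom, 202 in limma on FPKM, 222 with the neuron covariate, and 87 to 395 with 1 library left out. The replicate block gave 226 genes higher, 1123 lower and none called in edgeR, 647 higher on 6 libraries, and 235 higher in DESeq2. Of the 158 DESeq2 calls, 151 were kept with the block. Of the called genes named here, none was lost. They were named partly for a small p, and the block was taken from these data, so this does not measure stability. Non-overlapping genes numbered 1210 to 2266 lower and 644 to 2724 higher with 1 library left out, and 2483 lower and 2280 higher without the 2 neuron-rich ones.

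Of 121 genes followed, all kept their direction under RLE and upper-quartile scaling, which moved the median of all genes by 0.00132 and -0.000748. Klra3 turned to 0.75 in limma voom, and Cxcr3 to 0.32 without the neuron-rich pair and -0.46 to 0.23 with 1 library left out; the cause was not tested. Genes with a few reads are limited by depth: 9 of 17 inhibitory receptors had at most 3 reads over the 3 ΔNK tumors.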
